A study of Rattus norvegicus with 50 samples.

Results

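The comparison described here set 5 libraries of serotonin transporter knockout rats against 5 libraries of wild-type rats, both at postnatal day 14. They were 10 of 50 libraries of medial prefrontal cortex from Wistar rats, which covered both genotypes at postnatal days 8, 14, 21, 35 and 70 with 5 libraries per genotype and age. The day 14 libraries were found by genotype and age in their column names, and the 2 genotypes came in separate tables that were joined on Ensembl gene identifier. The knockout libraries are called 22-1, 22-3, 23-3, 24-1 and 24-2 and the wild-type libraries 19-1, 20-2, 20-4, 20-6 and 21-3, after the numbers in their titles. The labels name no drug or other treatment in either genotype, and they give neither the sex nor the litter of the rats, the kind of mutation, nor the meaning of the first title number. It is also not stated if each library was made from a different rat. A p-value here therefore measures only library-to-library spread within a group, part of which may be technical.

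The serotonin transporter is a membrane protein of serotonin neurons that takes released serotonin back up into the cell, which ends its action and allows it to be used again. Without it, extracellular serotonin is raised. In young rodents the transporter is also made for a short time by neurons that do not synthesize serotonin, among them thalamic neurons and some neurons of the prefrontal cortex, and serotonin acts on the growth and wiring of cortical neurons at these ages. In rat cortex the weeks around day 14 are a time of rapid synapse formation, of glial maturation and of the start of myelination.

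Each library held a value for 29516 gene identifiers, called rows here, in FPKM (fragments per kilobase of transcript, relative to the mapped reads of the library), and every library was rescaled before comparison. The 14779 rows whose mean over the whole series reached 0.5 FPKM were tested. The files give no gene symbols and no table used here paired the identifiers with any, so the transporter's own gene, cell type markers and pathway lists were not analysed here, and the check of the genotype labels by the targeted gene was not made. In the 10 libraries the total of all FPKM lay between 431410 and 1546800, 48.8% to 80.3% of it lay in the 50 highest rows, and 18747 to 20162 rows were above 0. Absolute depth is unknown. Relative depth, recovered from the steps between low values, ran from 0.726 in wild-type 21-3 to 1.42 in knockout 22-3, where 1 is the median library. Wild-type libraries 20-2 and 21-3 stood apart from the other 8 in blocks of rows that are described further on. The calls and the deviation of libraries over all rows are also given without both. The spread of single rows, the counts of rows without overlap and the maturation score are not given without both.

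A single row passed the test between the genotypes at day 14, and it was lower in knockout rats. This was 0.00677% of the 14779 rows tested (limma, Benjamini-Hochberg adjusted p under 0.05), and 0 rows were higher. At an unadjusted p under 0.05 there were 352 rows, or 2.38%, of which 164 were higher and 188 lower in knockout libraries. This share was smaller than the fraction of 0.05 that such a threshold passes on average when no row differs. Without wild-type 20-2 and 21-3 there were 213 such rows, and again a single row passed the adjusted test. The middle 90% of all rows differed by between −0.23 and 0.29 on the log2(FPKM + 0.5) scale (knockout minus wild-type), and the median difference was 0.01. On this scale 70 rows were more than 2-fold higher and 19 more than 2-fold lower in the knockout means, but the genotypes did not overlap in only 3 of the former and 3 of the latter. Because whole tissue was sequenced, fewer cells of a type and less RNA per cell cannot be told apart in any of these values.

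The row that passed was ENSRNOG00000002916. Its scaled FPKM in the knockout libraries was 3.06 in 22-1, 2.44 in 22-3, 2.23 in 23-3, 2.39 in 24-1 and 3.09 in 24-2. In the wild-type libraries it was 5.77 in 19-1, 4.00 in 20-2, 4.63 in 20-4, 4.53 in 20-6 and 4.37 in 21-3. Every knockout library thus lay below every wild-type library, with a mean of 2.64 ± 0.403 against 4.66 ± 0.664 (SD, n = 5 each). On the log2 scale the difference was −0.72 ± 0.12 (SE; limma adjusted p = 0.0069). The call was lost without knockout 23-3 (limma adjusted p = 0.0749) and without knockout 24-1 (limma adjusted p = 0.0529), while the log2 difference stayed at −0.67 and −0.69. It was also lost when the libraries were averaged by title number (limma adjusted p = 0.138) and when the day 14 libraries were fitted alone (limma adjusted p = 0.473).

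The same row, ENSRNOG00000002916, was followed through the other ages. At day 8 the knockout libraries held 1.05 to 1.55 FPKM and the wild-type libraries 2.26 to 4.21, again without overlap. At day 21, 3 of the 5 knockout libraries lay below all wild-type libraries, with means of 3.49 ± 0.244 and 4.37 ± 0.635 FPKM (SD, n = 5 each). The genotypes overlapped at day 35, with means of 4.28 and 4.23 FPKM, and at day 70, with means of 4.87 and 4.07 FPKM. Over the 5 ages the knockout mean therefore went from 1.28 to 4.87 FPKM and the wild-type mean from 2.97 to 4.07, with the wild-type mean at its highest at day 14. The day 14 difference was more negative than the mean of the differences at the other ages by −0.48 ± 0.13 (SE) on the log2 scale. This did not pass the test (limma adjusted p = 0.9998).

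**Figure D1:**
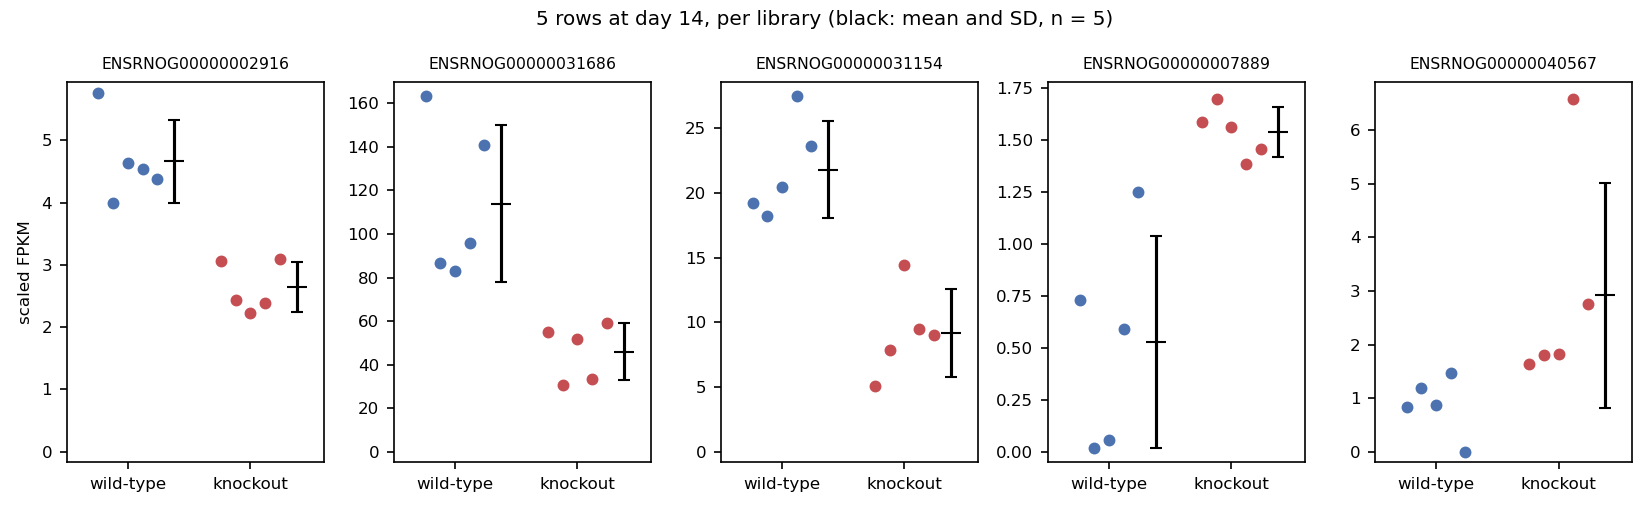
Scaled FPKM (linear axis, 1 panel per row) in each day 14 library of the 5 rows named for the difference between genotypes, with 1 point per library and the mean and SD in black (n = 5), left out where a library is listed at 0. The 5 knockout values of ENSRNOG00000002916 lie between 2.23 and 3.09 and the 5 wild-type values between 4.00 and 5.77.

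Besides the tested call, rows whose genotypes did not overlap were counted. All 5 knockout libraries lay above all 5 wild-type libraries in 27 rows (0.183%), and below them in 37 rows (0.25%). Of these, 18 and 31 averaged 1 FPKM or more in the 10 libraries. Counted in the same way, day 8 had 45 rows above (0.304%) and 81 below (0.548%), and day 21 had 51 (0.345%) and 43 (0.291%). Day 35 had 19 (0.129%) and 24 (0.162%), and day 70 had 36 (0.244%) and 39 (0.264%). The day 14 counts thus lay within the range of the other ages in both directions.

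Among the rows of at least 1 FPKM without overlap, ENSRNOG00000031686 and ENSRNOG00000031154 had the most negative log2 differences. For ENSRNOG00000031686 the knockout libraries held 55.0, 30.5, 51.8, 33.3 and 59.2 FPKM, in the order given at the start, and the wild-type libraries 163, 86.8, 83.0, 95.8 and 141. The highest knockout value was therefore 59.2 and the lowest wild-type value 83.0. The log2 difference was −1.30 ± 0.36 (SE from the spread over all 50 libraries, n = 5 each), and it did not pass the test (limma adjusted p = 0.9998). With the day 14 libraries fitted alone the SE was 0.248, and the row again did not pass (limma adjusted p = 0.524). At the other ages the genotypes overlapped in this row: the means were 110 and 112 FPKM at day 8 and 240 and 296 at day 21 (knockout and wild-type), and at day 70 they were 56.1 and 48.2.

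For ENSRNOG00000031154 the knockout libraries held 5.09, 7.85, 14.5, 9.48 and 9.03 FPKM and the wild-type libraries 19.2, 18.3, 20.5, 27.5 and 23.7. The highest knockout value, 14.5 in library 23-3, was under the wild-type minimum of 18.3. The log2 difference was −1.26 ± 0.39 (SE), which did not pass the test (limma adjusted p = 0.9998). With the day 14 libraries fitted alone the SE was 0.226, and the row again did not pass (limma adjusted p = 0.473). In both ENSRNOG00000031686 and ENSRNOG00000031154 the day 21 means of both genotypes were above their day 14 means.

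In the other direction, ENSRNOG00000007889 held 1.59, 1.70, 1.56, 1.39 and 1.46 FPKM in the knockout libraries and 0.729, 0.0191, 0.0568, 0.592 and 1.25 in the wild-type libraries. The knockout values lay close together, with an SD of 0.12, while the wild-type values ran from near 0 in 20-2 and 20-4 to 1.25 in 21-3. Their log2 difference of 1.14 ± 0.25 (SE) did not pass the test (limma adjusted p = 0.208). Without wild-type 21-3 it was 1.37 and passed the test (limma adjusted p = 0.0121), as it did without that library and the 3 libraries of other ages that share its low rows (limma adjusted p = 0.0129). The other 22 of 24 alternatives did not call it. Without wild-type 20-2 the difference was 0.93 (limma adjusted p = 0.989), and without both 20-2 and 21-3 it was 1.17 (limma adjusted p = 0.393). At day 8, 3 of 5 knockout libraries of this row were above all wild-type libraries, and at day 21 the means were 1.11 FPKM in both genotypes.

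The row with the largest positive log2 difference without overlap was ENSRNOG00000040567. Its knockout libraries held 1.63, 1.81, 1.82, 6.58 and 2.76 FPKM, and its wild-type libraries 0.833, 1.18, 0.877 and 1.46, while the row was listed at 0 in wild-type 21-3. An exact 0 in FPKM can be a failed estimate. The genotypes differed by 1.29 ± 0.57 (SE) on the log2 scale, which did not pass the test (limma adjusted p = 0.9998).

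Across the tested rows, no difference at day 14 departed from the mean of the differences at the other ages past the test (0 of 14779 by limma, with 322 at an unadjusted p under 0.05). The rows at an unadjusted p under 0.05 were then looked up at day 21, whose libraries are other libraries than those of day 14. Of the 188 rows lower in knockout libraries at day 14, 155 (82.4%) were lower at day 21, beside 48.4% of all rows. Of the 164 higher rows, 114 (69.5%) were higher at day 21, beside 51.6% of all rows. Wild-type 21-3 and wild-type 16-2 at day 21 were low in the same rows, as was each of 2 knockout libraries of other ages. Without those 4 libraries, 147 of 217 lower rows (67.7%) were lower at day 21, beside 49.1% of all rows, and 139 of 216 higher rows (64.4%) were higher, beside 50.9%. At days 8, 35 and 70, with all libraries, 48.8% to 60.4% of the higher rows were higher, beside 47.6% to 49.4% of all rows. Of the lower rows, 51.6% to 58.5% were lower, beside 50.6% to 52.3% of all rows. Without the 4 libraries, 52.3% to 58.3% of the higher rows were higher at these ages, beside 46.3% to 51.0%. Of the lower rows, 52.5% to 61.3% were then lower, beside 49.0% to 53.7%. These shares are descriptions, with no test.

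The other question was how far the libraries of a genotype differed among themselves. Wider spread among knockout libraries was seen in a maturation score, but not over all rows, where the wild-type libraries were the more spread. The score was the mean log2 value of 200 rising rows minus that of 200 falling rows. These rows had the largest limma statistics (change relative to spread) from day 8 to day 21 in wild-type libraries. The change itself used no day 14 library. The spread was pooled over all 50 libraries, so the day 14 libraries entered the choice through it. A higher score means a profile further along the course from day 8 to day 21.

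The knockout scores at day 14 were 0.296 in 22-1, 0.329 in 22-3, 0.329 in 23-3, 0.737 in 24-1 and 1.09 in 24-2. The wild-type scores were 0.695 in 19-1, 0.572 in 20-2, 0.610 in 20-4, 0.608 in 20-6 and 0.605 in 21-3. Both libraries with title number 24 lay above every wild-type library, and the other 3 knockout libraries lay below every one of them. As a share of the wild-type step from day 8 to day 21, the knockout libraries stood between 50.4% and 72.8% and the wild-type libraries between 58.2% and 61.7%. The SD was 0.349 in knockout and 0.0459 in wild-type libraries, and in the other 8 groups of the series it was 0.0424 to 0.154. The ranges were 0.793 and 0.123, with 0.0957 to 0.400 in the other 8 groups.

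**Figure D2:**
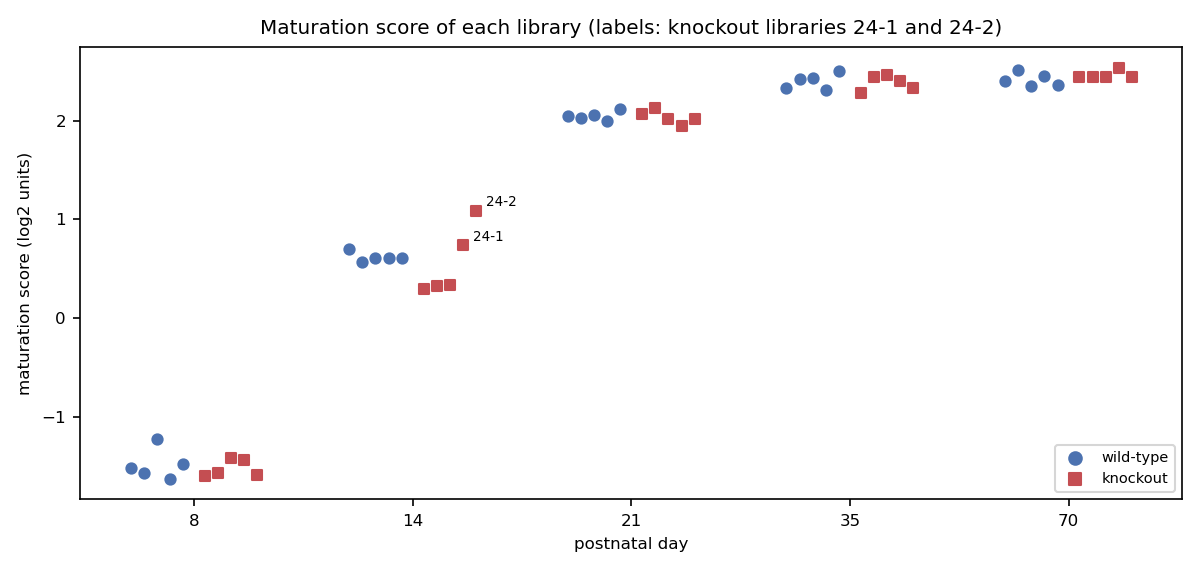
Maturation score (log2 units) of each of the 50 libraries against postnatal day, with 1 point per library, wild-type as circles and knockout as squares. At day 14 the knockout scores run from 0.296 to 1.09 and the wild-type scores from 0.572 to 0.695.

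The mean scores did not differ past the test. They were 0.556 in knockout and 0.618 in wild-type libraries, a difference of −0.062 with an interval of −0.33 to 0.32 (exact permutation test, two-sided, p = 0.683). The absolute deviations from the group median were larger by 0.214 in knockout libraries, which did not pass the exact permutation test (two-sided, p = 0.357). In 5 against 5 libraries the smallest p this test can give is 0.00794. The 3 lowest knockout scores carry first title numbers 22 and 23 and the 2 highest carry 24, a number the labels do not explain. The 2 of number 24 also lay apart from each other, at 0.737 and 1.09, with wild-type 19-1 at 0.695. What that number stands for was not tested. With libraries averaged by that number, the mean scores differed by −0.114 (exact permutation test, p = 0.6) and the absolute deviations by 0.167 (exact permutation test, p = 0.7). The averages leave 3 values per genotype, too few for this test to fall under 0.05 whatever the values, so it cannot decide here.

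The rows behind the knockout spread of the score were found in both lists. The knockout SD was larger than the wild-type SD in 266 of the 400 score rows (66.5%), beside 29.6% of all rows. The 266 were 137 of 200 rising rows and 129 of 200 falling rows. The choice of score rows favoured a small pooled spread, so the share of all rows is no neutral background. The median wild-type SD was 0.157 in score rows and 0.219 over all rows, and the median knockout SD was 0.191 and 0.157. The part of this choice in the contrast was not tested. Both libraries of title number 24 lay above the other 3 knockout libraries in 136 of the 200 rising rows (68%), beside 14.2% of all rows. They lay below them in 139 of the 200 falling rows (69.5%), beside 13.8% of all rows. Against the wild-type mean, the median log2 difference in rising rows was 0.12 for the libraries of number 24 and −0.15 for the other 3. In falling rows it was −0.14 and 0.14. Since libraries were set apart by their score, these counts describe that order and are no test of it.

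Among the rising rows, ENSRNOG00000015763 held 0.675, 1.12, 1.19, 2.04 and 2.40 FPKM in the knockout libraries and 0.663 to 1.31 in the wild-type libraries. Its wild-type means were 0.223 FPKM at day 8 and 9.68 at day 21. ENSRNOG00000000699 held 0.773, 0.526, 1.03, 1.65 and 1.94 FPKM in the knockout libraries and 1.24 to 2.22 in the wild-type libraries. In ENSRNOG00000015763 libraries 24-1 and 24-2 lay above all wild-type libraries, and in ENSRNOG00000000699 the other 3 knockout libraries lay below all of them.

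Among the falling rows, ENSRNOG00000012031 held 2.38, 2.51, 3.51, 1.22 and 0.782 FPKM in the knockout libraries and 1.23 to 2.68 in the wild-type libraries, with wild-type means of 19.3 at day 8 and 0.281 at day 21. ENSRNOG00000005797 held 16.6, 19.8, 17.6, 10.2 and 8.48 FPKM in the knockout libraries and 10.7 to 14.8 in the wild-type libraries. In ENSRNOG00000005797 libraries 24-1 and 24-2 lay below the wild-type range and the other 3 lay above it. These 4 rows were chosen after their values were seen, as those of each list with the largest excess of knockout over wild-type spread.

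Over all 14779 rows the order was the reverse. Each library's deviation was taken as the root mean square over rows of its log2 value minus the mean of the other 4 libraries of its group. It was 0.476 in knockout 22-1, 0.308 in 22-3, 0.387 in 23-3, 0.360 in 24-1 and 0.338 in 24-2. In wild-type it was 0.407 in 19-1, 0.695 in 20-2, 0.367 in 20-4, 0.380 in 20-6 and 0.662 in 21-3. The group means were 0.374 and 0.502, a difference of −0.128 that did not pass the exact permutation test (two-sided, p = 0.167). Without wild-type 20-2 and 21-3 the means were 0.374 and 0.344, and the difference was 0.0295 (exact permutation test, p = 0.536).

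**Figure D3:**
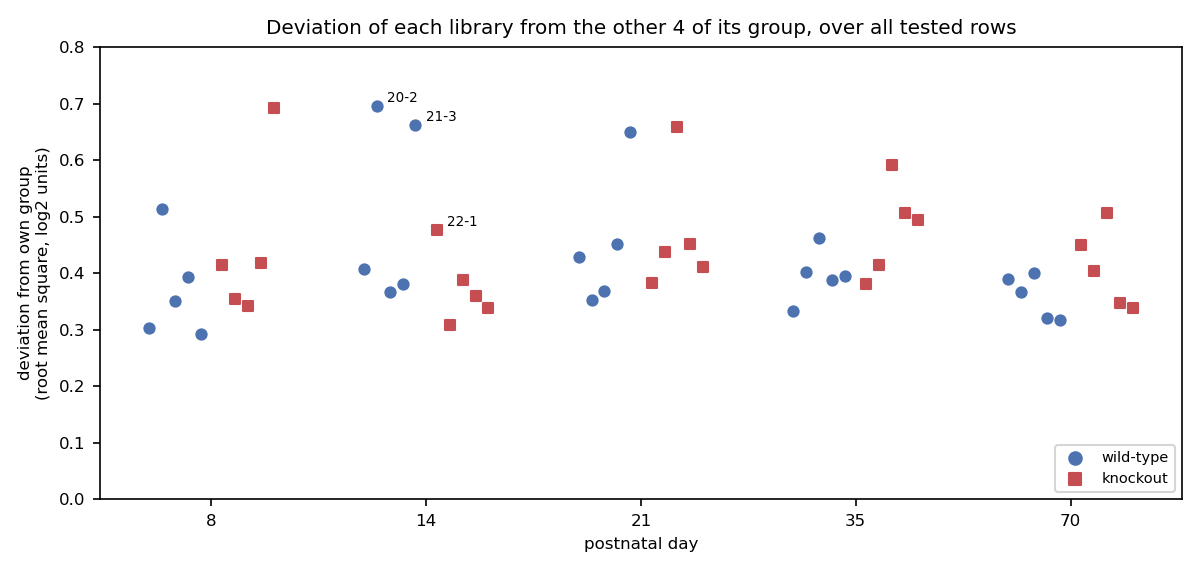
Deviation of each library from the other 4 of its group, as the root mean square over 14779 rows in log2 units, against postnatal day, with 1 point per library. At day 14, wild-type 20-2 and 21-3 reach 0.695 and 0.662, and the knockout libraries lie between 0.308 and 0.476.

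Row by row, the knockout sum of squares was larger than the wild-type one in 4380 rows (29.6%). At day 8 this share was 74.2%, at day 21 it was 37.7%, and it was 62.2% and 50.0% at days 35 and 70. The median SD of a row was 0.157 in knockout and 0.219 in wild-type libraries at day 14, and 0.145 to 0.232 in the other 8 groups. The share of knockout rows with the larger spread was below 50% in each class of expression level, from 22.7% of rows with a mean of 20 to 100 FPKM to 41.4% of rows under 1 FPKM. Along the direction of the wild-type change from day 8 to day 21, by contrast, lay 3.91% of the knockout sum of squares and 0.566% of the wild-type one, with 0.102% to 1.30% in the other 8 groups. These are shares of unlike totals, 6767 in knockout and 12923 in wild-type libraries. As positions along that direction, in percent of the wild-type step, the SD was 10.2 in knockout and 5.37 in wild-type libraries. In the other 8 groups that SD was 1.80 to 7.52.

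**Figure D4:**
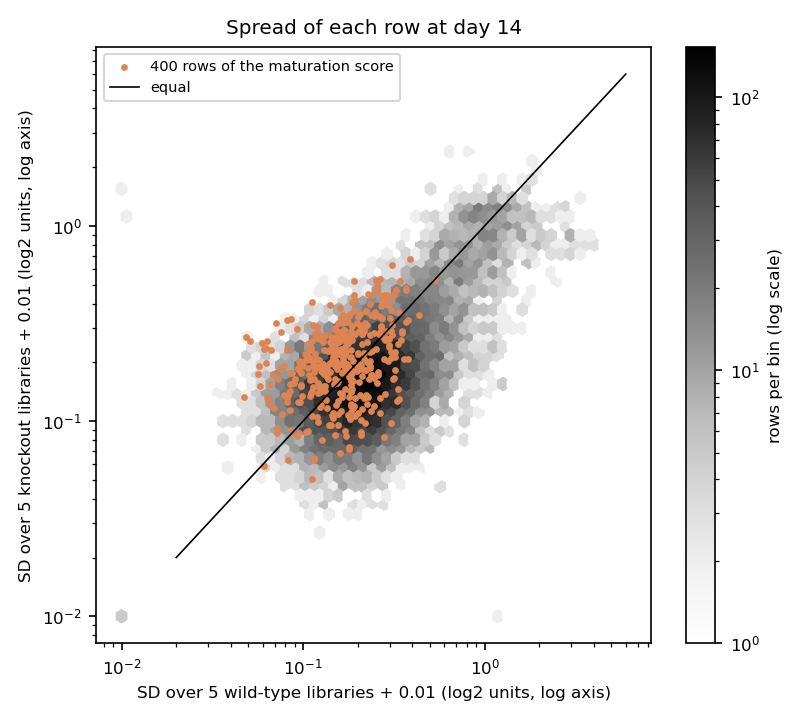
Within-group SD of each tested row at day 14 (log2 units, log axes, with 0.01 added), with the knockout value set against the wild-type value, grey shade for the number of rows per bin, orange points for the rows of the maturation score and a line where both are equal. The median SD is 0.157 in knockout and 0.219 in wild-type libraries. The knockout SD is the larger in 29.6% of all rows and in 66.5% of the rows of the maturation score. Those score rows were chosen in part for a small pooled spread.

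Some of the wild-type spread lay in blocks of rows that were low or high in 1 library. In wild-type 20-2, 111 rows lay at least 4-fold below every other day 14 library. Their median was 1.66 FPKM there and 44.0 to 216 FPKM in the other 9 libraries, and they held 23.5% of the wild-type sum of squares. Examples are ENSRNOG00000040641, listed at 0 in 20-2 and at 210 to 894 FPKM elsewhere, and ENSRNOG00000034505, listed at 0 in 20-2 and at 140 to 533 FPKM elsewhere. Both were chosen after their values were seen, for the largest excess of wild-type spread.

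In wild-type 21-3, which had the lowest relative depth of the 10, 77 other rows lay at least 4-fold below every other day 14 library. Their median was 1.36 FPKM there and 17.0 to 22.0 FPKM in the others. The same 77 rows were low in 3 libraries of other groups, with a median log2 deviation from the median of 50 libraries of −3.07 in knockout 30-5 (day 8), −2.77 in wild-type 16-2 (day 21) and −2.63 in knockout 7-3 (day 35). The relative depth of these 3 was 0.743, 0.398 and 0.801. In wild-type 2-3 of day 70 it was 0.460, and the deviation of the 77 rows was −0.045. A role of depth was not tested. A further 5 rows were at least 4-fold above every other day 14 library in 21-3, with a median of 1784 FPKM, and their median was also high in wild-type 8-4 and 11-4 of day 35, at 2510 and 1674 FPKM. The lists of low rows of 20-2 and 21-3 shared 0 rows, and no knockout library of day 14 stood alone by that margin in more than 1 row in either direction. With all these rows left out, 67.8% of the wild-type sum of squares remained, the sums were 6280 in knockout and 8761 in wild-type libraries, and the knockout one was larger in 30.0% of rows. The part of these blocks in the other results was not tested, beyond the values given without the 2 libraries.

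**Figure D5:**
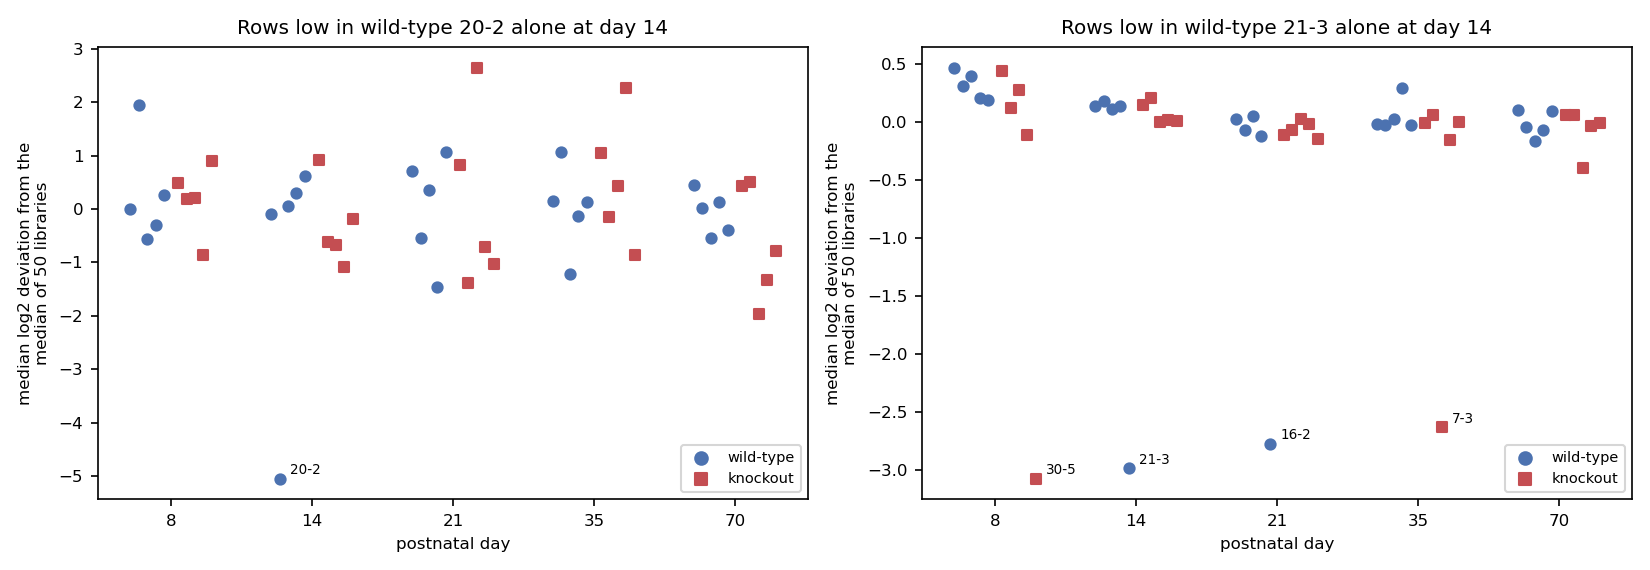
Median log2 deviation of each library from the median of 50 libraries, over the 111 rows low in wild-type 20-2 (left) and the 77 rows low in wild-type 21-3 (right), against postnatal day. On the left 20-2 stands alone, and on the right 21-3 lies with knockout 30-5, wild-type 16-2 and knockout 7-3, at −2.63 or lower.

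The 147 rows with the largest knockout sum of squares, 1% of those tested, held 27.5% of it, and the 147 rows with the largest wild-type sum held 33.4% of the wild-type one. The lists shared 30 rows, 20.4% of each. Of the 147 knockout rows, 66 (44.9%) were listed at 0 in at least 1 knockout library. Of all tested rows, 572 (3.87%) were listed at 0 in a library of either genotype at day 14. Among the 147 knockout rows, 86 had their highest value in knockout 22-1. This library had the largest total FPKM and the largest deviation of its group. The matching share of all rows is not given here, so it is open if that count is special to these rows.

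The rows with the largest excess of knockout over wild-type spread were ENSRNOG00000034416 and ENSRNOG00000034958. For ENSRNOG00000034416 the knockout libraries held 62.0, 0, 87.9, 0 and 0.861 FPKM, and it was at 0.781 in wild-type 19-1 and listed at 0 in the other 4 wild-type libraries. It was above 1 FPKM in 22-1 and 23-3 only, and neither pair of libraries with a shared title number held the 2 high values. At day 8 the same row held 87.6 to 155 FPKM in wild-type libraries and 0 to 150 in knockout libraries. For ENSRNOG00000034958 the knockout libraries held 658, 162, 1.57, 0.711 and 0 FPKM and the wild-type libraries 311, 0, 6.06, 0.632 and 1.04. Values above 100 FPKM thus occurred in both genotypes, in 2 knockout libraries and 1 wild-type library.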

How the data were processed

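RNA was depleted of ribosomal RNA, amplified by 10 cycles of PCR and sequenced as 50 bp single-end reads on an Illumina HiSeq, per the labels' protocols. The labels name gsnap and the rn4 assembly, while Cufflinks, bedtools and BWA 0.6.1 stand in the submitters' processing notes, also with rn4. Which of these made the tables is not settled here, and neither the annotation release nor the strand is given in the sources used here. The authors deposited FPKM values in 1 table per genotype. The labels of the wild-type samples say that they are also part of another series.

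Libraries were rescaled by the median, over 15296 rows, of their ratios to the geometric mean across the 50 libraries, with day 14 factors of 0.952 to 1.20. Values were tested as log2(FPKM + 0.5) with limma 3.58.1 in R 4.3.3, in a model of 10 groups over 50 libraries (40 residual degrees of freedom, trend and robust variance). The added 0.5 makes differences of low rows look smaller. P-values were adjusted by Benjamini-Hochberg over 14779 rows. The maturation score and the deviations were compared by exact permutation tests, and the interval holds shifts not rejected at the 95% level. Relative depth used 4242 low rows, in which 95.8% of the ratios in the median pair of libraries matched a ratio of small whole numbers to 0.02 log2 units. The rest was done in Python 3.11.15 (pandas 2.3.3, numpy 2.4.6 and, for figures, matplotlib 3.10.9).

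Rows named were those called, then the 2 per direction with the largest log2 difference among rows of at least 1 FPKM without overlap, then the 2 with the largest excess of knockout spread. A reference table of the assembly GRCr8 matched 0 of the identifiers, so no symbols, coordinates or sequences are given. The comparison, the lists and the tests were chosen with earlier results of these data known. Alternatives covered the pseudocount, the filter, the scaling, the model and each library left out.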

Additional observations from a re-analysis of the deposited data

Results flagged for a closer look

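In 36 sets of 5 day 14 values, 5 had a library far from the other 4. Chance flags about 1 in 20 sets of values that were not chosen, but these 5 fall in rows named for their large spread or difference, so their number cannot be set against that rate. ENSRNOG00000040567 was 6.58 FPKM in knockout 24-1, with the next highest knockout library at 2.76. ENSRNOG00000034416 was 0.781 FPKM in wild-type 19-1 and listed at 0 in the other 4 wild-type libraries, so that any value above 0 would stand apart. ENSRNOG00000034958 was 658 FPKM in knockout 22-1, with the next at 162, and 311 FPKM in wild-type 19-1, with the next at 6.06. ENSRNOG00000034505 was 533 FPKM in knockout 22-1, with the next at 219. Of these 5 values, 2 belong to wild-type 19-1, 2 to knockout 22-1 and 1 to knockout 24-1.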

How the results depend on the processing

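The single call at day 14 was kept in number by the other pseudocounts, the other filters, quantile normalization and the fit with title number as a random effect. The count was 2 with values as deposited, 3 with array weights, 0 when averaged by title number and 0 with the day 14 libraries alone. Leaving out each library in turn gave 0 to 3 calls, with 0 without knockout 23-3 or 24-1, 3 without knockout 24-2, and 2 without wild-type 19-1 or 21-3. Alternatives chosen after seeing the data gave 7 calls without knockout 24-1 and 24-2 and 4 without the 4 libraries low in the same rows. The 352 rows at an unadjusted p under 0.05 became 1077 with values as deposited, 871 of more rows tested without a filter, 620 with array weights, 599 without knockout 24-1 and 24-2, 567 averaged by title number, 229 of fewer rows under the filter at 2 FPKM, and 213 without wild-type 20-2 and 21-3. ENSRNOG00000002916 was called in 21 of 25 alternatives, with limma adjusted p from 0.00212 to 0.473. The comparison with the other ages gave 0 calls except without knockout 24-1 and 24-2, where it gave 3, and 0 whichever single library was left out.

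The difference in deviation over all rows (−0.128) was −0.0534 as a median absolute deviation (exact permutation p = 0.0476). As 1 minus the Pearson correlation it was −0.0277 (exact permutation p = 0.00794). Both of these measures included wild-type 20-2 and 21-3. As with the root mean square, each library was set against the others of its group, so 20-2 and 21-3 enter the value of every wild-type library. The 5 wild-type values are therefore not independent, and neither p shows a spread common to all of them. The root mean square difference lay between −0.176 and −0.0657 with 1 library left out, passing the exact test only without knockout 22-1. It reversed to 0.0295 without wild-type 20-2 and 21-3 and to 0.048 over the score rows alone. The mean score difference lay between −0.207 and 0.00306 with 1 library left out, and reversed only without knockout 22-1. The score's spread difference lay between 0.0848 and 0.2735, with an exact permutation p of 0.0159 without knockout 22-1, 22-3 or 23-3 and of 0.381 to 0.698 without each of the other 7. Knockout 22-1, 22-3 and 23-3 have the lowest knockout scores. Without any 1 of them the knockout median falls in the gap between low and high scores, so that every knockout deviation from it is large. The low p follows from this measure and is no separate evidence of a wider knockout spread. Without knockout 24-1 and 24-2, left out because of their scores, the mean difference was −0.32 and the spread difference reversed to −0.017, which are values and not tests. The cause of the other changes was not tested, and 5 libraries per genotype limit the precision of each.

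No paired analysis was possible because the genotypes share no title number.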

Other observations

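The differences between genotypes at day 14 were set against those at the other ages over 14779 rows, as a description across rows that are not independent. Pearson's r was −0.246 with day 8, 0.229 with day 21, −0.129 with day 35 and −0.069 with day 70. Without the 4 libraries that were low in the same 77 rows it was −0.0714, 0.0631, 0.126 and −0.140, so that the sign at day 35 changed. The 5 rows high in wild-type 21-3 had a median of 2.42 to 46.0 FPKM in the other day 14 libraries, 217 in knockout 30-5 of day 8, and 1784, 1674 and 2510 in wild-type 21-3 and in wild-type 11-4 and 8-4 of day 35, the 4 highest of the 50 libraries.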
